A study of Mus musculus with 16 samples.

Results

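Tissue inhibitors of metalloproteases (Timps), matrix metalloproteases and Adamts proteins were examined in the corpus callosum of mice fed cuprizone (CPZ). This compound binds copper and, given in the chow, strips the tract of myelin as the cells that make it die. The genes are a list of names, chosen with earlier results of these data known, and no measured threshold entered the choice of probes. They were 4 inhibitors (Timp1, Timp2, Timp3 and Timp4), 3 matrix metalloproteases (Mmp2, Mmp12 and Mmp14), 2 Adamts proteases (Adamts1 and Adamts4) and the related Adamtsl4. These 10 genes, of 18749 genes with a name on the array, were measured by 13 of its 41174 probes. Timp1, Mmp14 and Adamts1 had 2 probes each, called brighter and dimmer by their mean signal. RNA came from punched-out corpus callosum of male wild-type C57BL/6 mice that entered the study at 7 to 8 weeks of age. There were 3 arrays of untreated controls on normal chow, 3 arrays of mice after 2 weeks of CPZ, 4 arrays after 4 weeks of CPZ, and 6 arrays of mice returned to regular diet after 4 weeks of CPZ. The chow held 0.2 to 0.4% CPZ per the labels. The regular diet lasted 2 or 14 days by the study's methods, and the labels do not say which array had which. The 6 arrays were therefore taken as 1 group, and its spread holds any difference between these durations.

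Timps are secreted proteins that block the catalytic site of metalloproteases, and matrix metalloproteases are zinc enzymes that cut collagens, laminins, other proteases and cell surface proteins. Adamts proteases cut the large proteoglycans that fill the extracellular space of the brain, such as aggrecan, brevican and versican. In white matter, these enzymes and inhibitors are made by glia, by cells of the vessel wall and, after injury, by phagocytes, and they are studied for their part in clearing myelin debris and in the growth of new oligodendrocytes.

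Sequence upstream of the genes was at hand for 8 of the 10 genes, and none for Mmp2 and Adamts4. The promoters of Timp1 and Adamtsl4 are shown because these are the genes with a probe that passed the test below. Each runs from 250 bases before to 50 bases after the start of the gene on GRCm38.p6 in RefSeq. The Timp1 promoter lies at chrX:20869916-20870215 on the plus strand, and that of Adamtsl4 at chr3:95687868-95688167 on the minus strand. Capitals mark matches, on either strand, to short motifs of well known factors. These were TGANTCA for AP-1 and, as its variant, TGAGTAA. For Ets factors the letters were AGGAAG, and for STAT factors TTCNNNGAA. For HMG box factors they were ACAAAG, and for the TATA box TATAAA. No matches of different motifs overlapped. The letters searched were chosen with the sequences in view.
Timp1: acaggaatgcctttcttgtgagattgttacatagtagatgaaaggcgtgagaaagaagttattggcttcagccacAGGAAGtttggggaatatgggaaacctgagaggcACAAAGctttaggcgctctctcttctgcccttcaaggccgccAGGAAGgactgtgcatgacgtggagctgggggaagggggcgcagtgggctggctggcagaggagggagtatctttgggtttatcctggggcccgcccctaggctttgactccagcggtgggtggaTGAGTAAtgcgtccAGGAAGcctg
Adamtsl4: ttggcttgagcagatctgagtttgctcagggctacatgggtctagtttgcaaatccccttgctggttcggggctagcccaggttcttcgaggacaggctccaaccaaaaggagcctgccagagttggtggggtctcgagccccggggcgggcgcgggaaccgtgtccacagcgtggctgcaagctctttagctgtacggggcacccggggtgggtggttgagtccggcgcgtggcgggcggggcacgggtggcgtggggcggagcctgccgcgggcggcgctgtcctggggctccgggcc

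The Timp1 promoter held 3 matches to AGGAAG, 1 to TGAGTAA and 1 to ACAAAG. Of 32851 promoters of the same length, 35.4% held AGGAAG, 2.68% TGAGTAA and 18.7% ACAAAG. Among the genes studied here, AGGAAG was also found in the promoters of Timp3, Timp4 and Mmp14 and in 1 of the 2 of Mmp12, and ACAAAG in that of Adamts1 and 1 of the 2 of Mmp12. The Adamtsl4 promoter held none of the letters searched, and 68.0% of its bases were G or C, against 55.0% for Timp1. TGANTCA was found in 7.81% of all promoters and, among the genes studied here, in 1 of the 2 listed promoters of Mmp12. TTCNNNGAA was found in 8.3% of all promoters and in none of those of the genes studied here. TATAAA was found in 13.6% of all promoters and in those of Adamts1 and 1 of the 2 of Mmp12. A match is a description of the letters and not a measured site.

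The arrays were single-colour Agilent 4x44K mouse arrays on 4 slides, with 4 arrays a slide. The scanner files and the deposited processed table disagreed on which array was which sample. All 16 of its columns matched 1 array each (Pearson's r across 28153 probes of at least 0.9997, next best array at most 0.85), and for 14 of them the array was recorded under another sample, 13 times of another group. Over its 3 untreated columns, the median was 0 for 100% of probes, against at most 52.1% for any other of the 560 possible sets of 3 columns. The arrays were therefore assigned through the processed table, and the recorded assignment was run as an alternative. Between 57.3 and 72.2% of probes were well above background on an array. Untreated array 1 and 4-week arrays 2 and 3 had the lowest shares (57.3, 60.3 and 59.2%) and stood apart from the other arrays of their groups. With 3 to 6 arrays a group, the precision of all values is limited.

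Values are log2 signals relative to the 75th percentile of the same array, so that 0 is the level of that percentile and a difference of 1 is 2-fold. Groups were compared with limma over all probes, 27505 in the CPZ comparisons and 27785 in those with regular diet. A difference of at least 2-fold was called where its p, adjusted by the Benjamini-Hochberg method, was under 0.05. Testing required a signal well above background throughout at least 1 group. This held for 12 of the 13 probes and for 9 of the 10 genes, since Mmp12 did not reach it. Where a gene is counted, it is counted by its brightest tested probe. All comparisons with untreated mice share the same 3 arrays. In tissue RNA, fewer cells of a type and less RNA per cell cannot be told apart.

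Timp1, which inhibits most secreted matrix metalloproteases and also acts as a growth factor, was higher on every CPZ and regular diet array than on any untreated array. On the brighter Timp1 probe, untreated arrays 1 to 3 read −2.03, −1.0 and −1.35. After 2 weeks of CPZ, arrays 1 to 3 read 1.38, 0.18 and 0.71. After 4 weeks of CPZ, arrays 1 to 4 read 1.11, −0.95, 1.05 and 0.45. At 4 weeks only array 2 was below 0, just above the highest control. On regular diet, arrays 1 to 6 read 1.57, 1.90, 0.40, −0.08, 0.22 and −0.14. Arrays 1 and 2 were the highest of all 16, and arrays 4 to 6 lay near 0. The group means were −1.46 ± 0.53 (SD, n = 3) in untreated mice, 0.76 ± 0.61 (SD, n = 3) at 2 weeks, 0.42 ± 0.96 (SD, n = 4) at 4 weeks and 0.64 ± 0.87 (SD, n = 6) on regular diet. The ranges of the 3 later groups overlapped. This is a difference from untreated of 2.22 at 2 weeks (4.65-fold, standard error 0.56, adjusted p = 0.151 with limma), 1.88 at 4 weeks (3.67-fold, standard error 0.52, adjusted p = 0.197) and 2.11 on regular diet (4.31-fold, standard error 0.53, adjusted p = 0.0962). None of these passed the test on this probe. Leaving out 4-week array 2, the lowest of its group, the 4-week difference was 2.33 with an adjusted p of 0.0473. Between regular diet and 4 weeks of CPZ the difference was 0.23 (95% interval −0.81 to 1.27, adjusted p = 0.791 with limma). It was −0.07 under median scaling, which moved the median difference of all probes by −0.30 in this comparison.

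On the dimmer Timp1 probe, none of the untreated arrays was well above background, and they read −5.86, −5.94 and −5.81. It was well above background on all 13 other arrays. It read −2.05, −3.61 and −2.81 after 2 weeks of CPZ and −3.73, −4.32, −2.08 and −3.69 after 4 weeks. On regular diet it read −1.96, −1.59, −3.01, −3.72, −3.10 and −3.74, again highest on arrays 1 and 2. Because its untreated level is only a limit, its folds are lower bounds. They set the mean of the brighter group against the mean, over the untreated arrays, of the higher of the probe's signal and the lowest signal well above background. Timp1 rose at least 3.55-fold on regular diet on this probe (means −2.85 and −5.87, adjusted p = 0.017 with limma). It was at least 3.63-fold higher at 2 weeks (adjusted p = 0.0693) and at least 2.34-fold higher at 4 weeks (adjusted p = 0.105), neither of which passed. The 2-week difference passed with the slide as a random block (adjusted p = 0.0322) and without 4-week array 3 (0.0337), and the 4-week difference with the slide as a fixed block (0.0336) or a random block (0.0331). The probe entered the fit through the groups where it is high, so that it had to differ from the controls. Its regular diet call was lost without any 1 of the 3 untreated arrays (adjusted p = 0.071 without array 1, 0.0959 without array 2 and 0.105 without array 3). With normexp background correction, which adds a constant of 50 to the signal, its difference was 0.10 in place of 3.02. The mean of both Timp1 probes gave a regular diet difference of 2.56 (adjusted p = 0.0315), which also rests on the dimmer probe's untreated signals, none of them well above background. Within the slides that held both groups, the regular diet difference of the brighter probe was 1.96, 1.88 and 2.25.

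**Figure D1:**
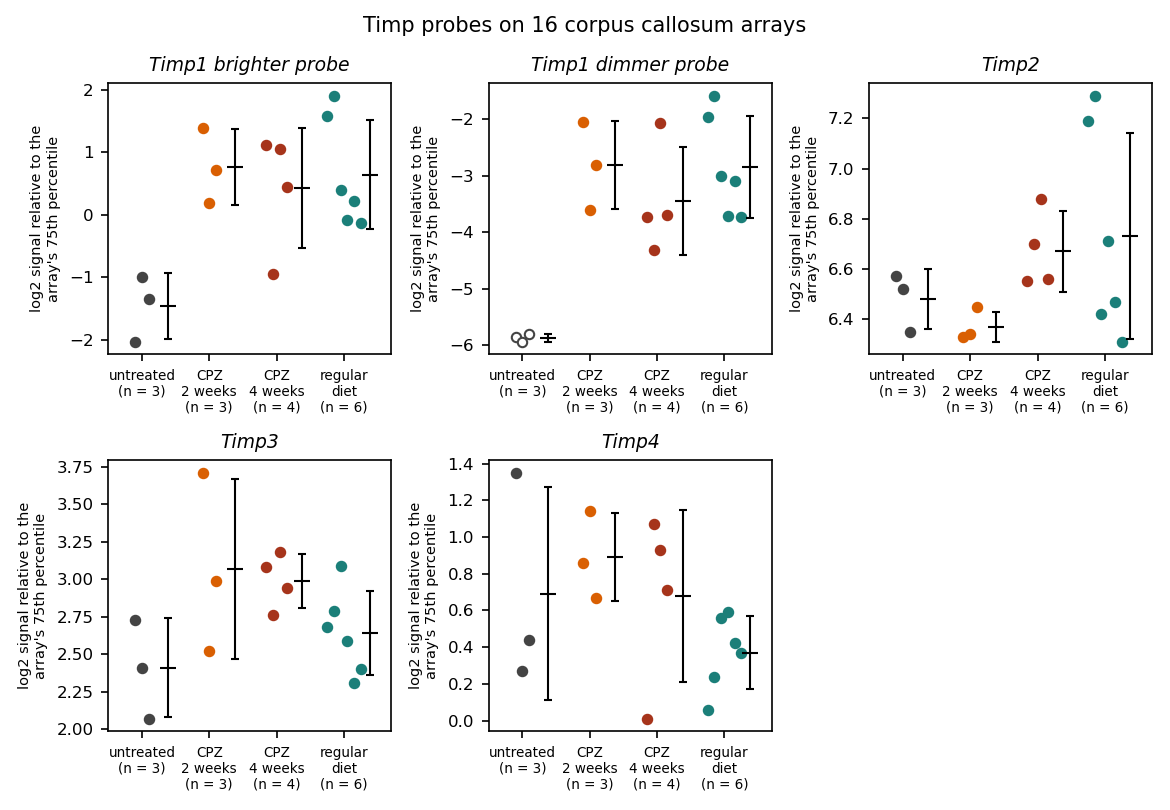
Level of the Timp probes (vertical axis, log2 relative to the 75th percentile of the array) on each of 16 arrays, grouped as untreated, CPZ for 2 weeks, CPZ for 4 weeks and regular diet. Filled points are arrays where the probe was well above background, open points where it was not, and bars are the mean ± SD of the group; the untreated arrays lie below all others on both Timp1 probes, at −1.0 or less on the brighter one.

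Timp2, which at low amounts helps Mmp14 to activate Mmp2, was nearly level across the groups. Untreated arrays read 6.57, 6.52 and 6.35, 2-week arrays 6.33, 6.34 and 6.45, and 4-week arrays 6.55, 6.70, 6.88 and 6.56. Regular diet arrays ranged from 6.31 to 7.29 with a median of 6.59, and arrays 1 and 2 (7.19 and 7.29) were the highest of all. The differences from untreated were −0.10 at 2 weeks (95% interval −0.48 to 0.27), 0.20 at 4 weeks (−0.16 to 0.55) and 0.25 on regular diet (−0.19 to 0.70), all well inside 2-fold. Regular diet and 4 weeks of CPZ differed by 0.06 (95% interval −0.35 to 0.46).

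Timp3, which stays bound to the matrix and also inhibits Adamts proteases and the sheddase Adam17, read 2.73, 2.41 and 2.07 in untreated mice. It read 3.71, 2.52 and 2.99 after 2 weeks and 3.08, 2.76, 3.18 and 2.94 after 4 weeks of CPZ. All 4-week arrays were above all controls, while the 2-week and control ranges overlapped. The differences were 0.66 at 2 weeks (standard error 0.31, adjusted p = 0.573 with limma) and 0.58 at 4 weeks (standard error 0.29, adjusted p = 0.565). On regular diet Timp3 ranged from 2.31 to 3.09 with a median of 2.63, at a difference of 0.24 from untreated and −0.35 from 4 weeks of CPZ (adjusted p = 0.674 and 0.331).

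Timp4, the inhibitor with the narrowest range of tissues, overlapped between untreated mice and each other group. It read 1.35, 0.27 and 0.44 in untreated mice, 0.86, 1.14 and 0.67 after 2 weeks, and 0.01, 1.07, 0.93 and 0.71 after 4 weeks of CPZ. Regular diet arrays ranged from 0.06 to 0.59 with a median of 0.39. The differences from untreated were 0.20 at 2 weeks, −0.01 at 4 weeks and −0.31 on regular diet, with 95% intervals from −0.60 to 1.0, −0.75 to 0.74 and −0.87 to 0.24. Untreated array 1 set much of these values, as the 4-week difference was 0.32 without it.

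Mmp2, the gelatinase that cuts denatured collagen and basement membrane, was dim. It read −2.98, −3.89 and −3.58 in untreated mice and −3.20, −4.80 and −3.88 after 2 weeks of CPZ, where it was well above background on 2 of 3 arrays. After 4 weeks of CPZ it read −6.02, −3.14, −2.67 and −3.99, and array 1 was not well above background. On regular diet it read −2.20, −1.81, −3.41, −2.16, −3.01 and −2.69, and 4 of the 6 arrays were above all controls. The differences from untreated were −0.48 at 2 weeks, −0.47 at 4 weeks and 0.94 on regular diet (adjusted p = 0.905, 0.896 and 0.567 with limma). Regular diet was 1.41 above the 4-week mean (standard error 0.55, adjusted p = 0.148). Without 4-week array 1 this difference was 0.72, so that array 1 accounts for much of its size. With 4-week arrays 2 and 3 and untreated array 1 left out instead, it was 2.46 (adjusted p = 0.024). That leaves only arrays 1 and 4 at 4 weeks, and the signal of array 1 is only a limit. With normexp correction the difference from untreated on regular diet was −0.05.

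Mmp14, the membrane-bound protease that activates Mmp2, overlapped between untreated mice and each other group on both probes. Its brighter probe read 1.56, 0.88 and 0.55 in untreated mice, 1.05, 0.02 and 0.63 after 2 weeks and 0.69, 1.34, 1.69 and 1.05 after 4 weeks of CPZ. On regular diet it ranged from 1.14 to 1.48 with a median of 1.23, a narrower spread than in any other group (SD 0.12 against 0.42 to 0.52). The differences from untreated were −0.43, 0.20 and 0.25 (adjusted p = 0.893, 0.904 and 0.673 with limma), and those of the dimmer probe −0.43, 0.34 and 0.30. The lowest p between 4 and 2 weeks of CPZ among the genes studied here was that of the dimmer Mmp14 probe (0.77 higher at 4 weeks, standard error 0.32, adjusted p = 0.466). Mmp12, the macrophage elastase, was not well above background on any of the 16 arrays. Its signals lay between −7.17 and −6.12, and it was not tested.

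Adamts4, a protease of aggrecan and brevican, was lower on every CPZ array than on any untreated array. Untreated arrays 1 to 3 read 0.77, 0.33 and −0.03. After 2 weeks of CPZ, arrays 1 to 3 read −0.90, −2.45 and −1.80, and after 4 weeks, arrays 1 to 4 read −2.72, −1.24, −0.85 and −2.02. On regular diet, arrays 1 to 3 read −2.03, −2.20 and −1.94, inside the range of the CPZ arrays, and arrays 4 to 6 read 0.32, 0.34 and 1.14, within or above the untreated range. The group means were 0.35 ± 0.40 (SD, n = 3), −1.72 ± 0.78 (SD, n = 3), −1.71 ± 0.83 (SD, n = 4) and −0.73 ± 1.49 (SD, n = 6). The differences from untreated were −2.07 at 2 weeks (4.2-fold lower, standard error 0.53, adjusted p = 0.153 with limma), −2.06 at 4 weeks (4.18-fold lower, standard error 0.50, adjusted p = 0.129) and −1.08 on regular diet (standard error 0.72, adjusted p = 0.576). None passed the test. With normexp correction, the 2-week difference was −1.30 and passed (adjusted p = 0.0456). On slide 1, the only one with untreated and 2-week arrays, the difference was −2.12, and on slides 2 and 3 the 4-week differences were −1.18 and −2.70.

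Adamtsl4, which is built like an Adamts protein but lacks the protease domain and binds fibrillin, fell after 4 weeks of CPZ. Untreated arrays 1 to 3 read −1.61, −1.75 and −1.95. After 2 weeks of CPZ, arrays 1 to 3 read −3.34, −4.46 and −4.72, and after 4 weeks, arrays 1 to 4 read −5.03, −4.37, −4.34 and −3.99. None of these arrays reached the untreated range. The probe was well above background on 3 of 3 untreated, 2 of 3 2-week and 1 of 4 4-week arrays, and it entered the fit through the untreated group, where it is high and so had to differ. The CPZ and regular diet means thus include arrays on which the signal is only a limit, and the folds below are of the measured signals. The difference was −2.66 at 4 weeks (6.34-fold lower in measured signal, standard error 0.35, adjusted p = 0.0392 with limma) and −2.41 at 2 weeks (5.3-fold lower, standard error 0.38, adjusted p = 0.0542). On regular diet, where arrays 1 and 2 were not well above background, arrays 1 to 3 read −5.02, −5.18 and −4.20, and arrays 4 to 6 read −1.75, −1.96 and −1.08. As for Adamts4, arrays 1 to 3 lay close to the CPZ arrays and arrays 4 to 6 close to or above the untreated ones. The mean over all 6 differed by −1.43 from untreated (standard error 0.80, adjusted p = 0.526) and by 1.23 from that at 4 weeks (standard error 0.73, adjusted p = 0.298).

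The 4-week call of Adamtsl4 was close to the threshold. It was lost, with a difference still between −2.47 and −2.81, without untreated array 1, 2 or 3 (adjusted p = 0.062, 0.208 and 0.155), without 2-week array 3 (0.0846) and without 4-week array 1, 3 or 4 (0.107, 0.0854 and 0.115). It was also lost with all 16 arrays in 1 fit (adjusted p = 0.318) and with the methods' test (adjusted p = 0.131). The latter is an analysis of variance with a Tukey post-hoc test. It gave the same adjusted p at 2 weeks, so that 0.131 cannot be read as a p of the 4-week difference alone. With normexp correction the difference was −0.81 (adjusted p = 0.0775). The 2-week difference passed with the slide as a random block (−2.50, adjusted p = 0.028), without 2-week array 1 (−2.82, adjusted p = 0.0428) and without 4-week array 1 (−2.41, adjusted p = 0.043). Within slides, the 2-week difference was −2.42 on slide 1, and the 4-week differences were −2.59 on slide 2 and −3.08 on slide 3.

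**Figure D2:**
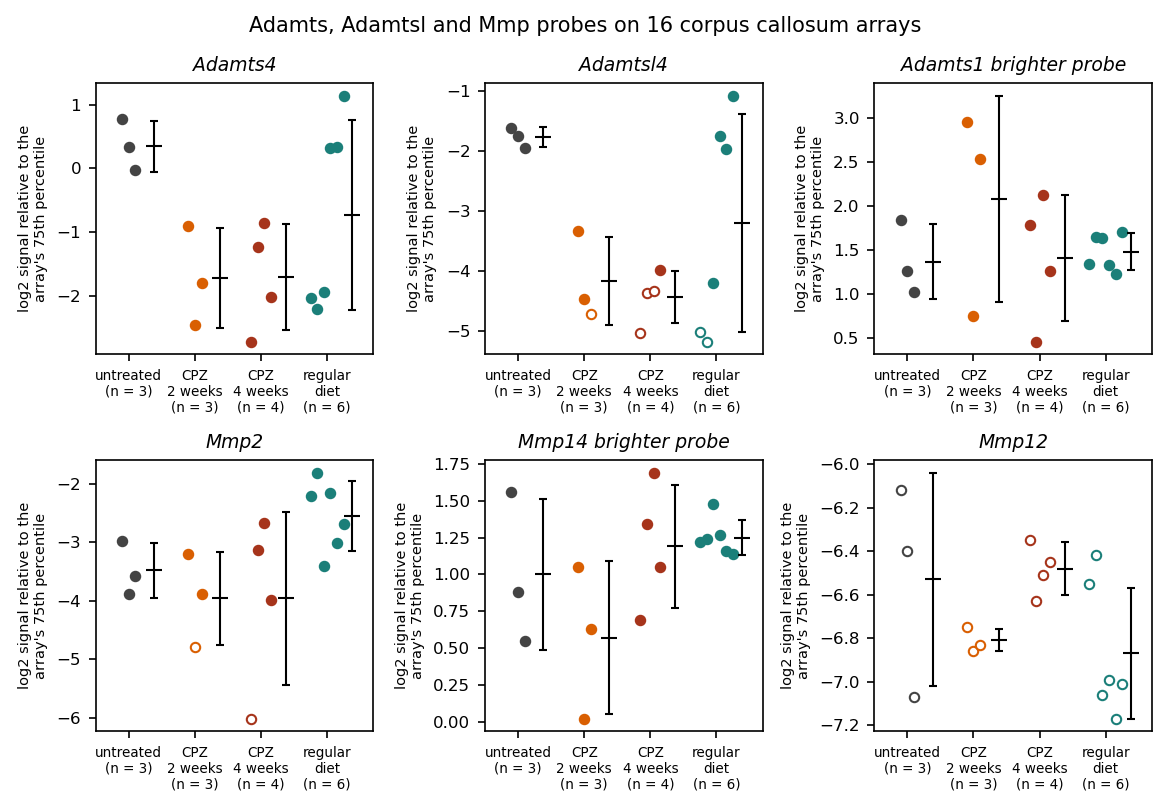
Level of the Adamts4, Adamtsl4, Adamts1, Mmp2, Mmp14 and Mmp12 probes (vertical axis, log2 relative to the 75th percentile of the array) on each of 16 arrays in 4 groups, with the brighter probe where a gene has a pair. Filled points were well above background, open points were not, and bars are the mean ± SD; Adamts4 and Adamtsl4 are below the untreated range on all CPZ arrays, and 3 of the 6 regular diet arrays lie with the CPZ arrays.

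Adamts1, a protease of versican and aggrecan that is induced in many tissues by inflammation, spread widely in the CPZ groups. On its brighter probe it read 1.84, 1.26 and 1.02 in untreated mice and 2.95, 0.75 and 2.53 after 2 weeks of CPZ. It read 1.78, 0.46, 2.12 and 1.26 after 4 weeks of CPZ and ranged from 1.23 to 1.70 on regular diet, with a median of 1.49. The 2-week arrays lay on both sides of the controls. The differences from untreated were 0.71 at 2 weeks (95% interval −0.64 to 2.06), 0.03 at 4 weeks (−1.23 to 1.30) and 0.11 on regular diet (−0.80 to 1.02). The dimmer probe gave 0.65, −0.05 and −0.01. Neither probe was called in any comparison.

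Counted by gene, limma called 0 of the 9 tested genes at 2 weeks of CPZ against untreated, where 0.211% of all 20404 genes tested were called (0.0784% higher and 0.132% lower). These 20404, and the 20608 below, outnumber the 18749 genes with a name, so that probes without a name are counted among them. At 4 weeks limma called 1 of 9, Adamtsl4, where 0.167% of all genes were called (0.098% higher and 0.0686% lower). Adamtsl4 entered the fit through the untreated group, where it is high, and an excess over that share was not tested. On regular diet against untreated limma called 0 of 9 by their brightest probes, where 0.854% of 20608 genes were called, all of them higher. Against 4 weeks of CPZ it called 0 of 9, where 0.00485% were called. The methods' test called 0 of 9 in each of the 4 comparisons. At an unadjusted p under 0.05, Timp1 was higher and Adamts4 and Adamtsl4 were lower at 2 and at 4 weeks. Of all genes, 4.5% were higher by that measure at 2 weeks, and 5.04% lower. At 4 weeks 5.17% of all genes were higher by it, and 4.84% lower. Timp1 was also higher by it on regular diet than in untreated mice (6.28% of all genes higher and 4.3% lower), and Mmp2 was higher on regular diet than at 4 weeks (15.5% of all genes higher and 11.1% lower). The groups did not overlap for Timp1, Adamts4 and Adamtsl4 at 2 weeks, where 8.12% of genes lay wholly higher and 8.64% wholly lower. At 4 weeks they did not overlap for Timp1, Timp3, Adamts4 and Adamtsl4 (5.26 and 4.46% of all genes), and on regular diet against untreated for Timp1 (5.05% wholly higher and 3.48% wholly lower). Between regular diet and 4 weeks all 9 overlapped, where 4.97% of genes lay wholly higher and 3.46% wholly lower. The median difference over the 9 genes was −0.10, 0.03 and 0.24 in the comparisons with untreated, beside 0.05, −0.04 and −0.01 over all genes.

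**Figure D3:**
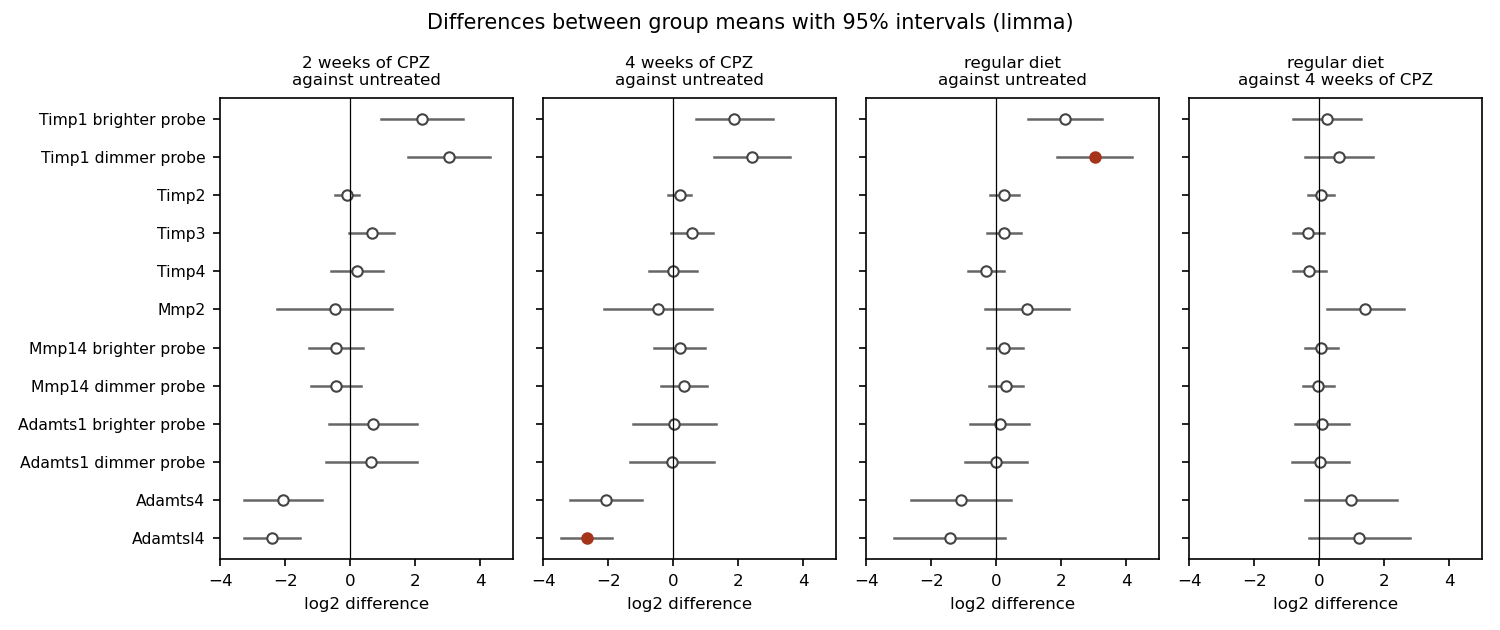
Difference between group means (horizontal axis, log2) with its 95% interval from limma for the 12 tested probes, 1 panel for each comparison. Filled points passed the test, which held for Adamtsl4 at 4 weeks of CPZ (−2.66) and for the dimmer Timp1 probe on regular diet against untreated (3.02); for that probe the untreated level, and for Adamtsl4 the level on 3 of the 4 4-week arrays, is only an upper limit.

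Markers of cell types were read on the same arrays. All 14 tested myelin and oligodendrocyte markers were lower than in untreated mice at 2 and at 4 weeks of CPZ, with medians of −3.26 and −2.70, and 0 were called (13 and 11 had an unadjusted p under 0.05, all lower). Their summed signal, relative to the 75th percentile, was 657 to 1400 on untreated arrays, 35.8 to 306 at 2 weeks, 49.8 to 428 at 4 weeks and 112 to 1340 on regular diet. On regular diet it was 112, 119 and 176 on arrays 1 to 3, on which Adamts4 and Adamtsl4 were low, and 918, 973 and 1340 on arrays 4 to 6, on which both were close to or above the untreated range. The part of the myelin markers in the values of Adamts4 and Adamtsl4 was not tested. The summed signal of 12 microglia markers was 34.8 to 73.8 on untreated arrays, 57.1 to 135 at 2 weeks and 91.2 to 232 at 4 weeks. On regular diet it was 853 and 1070 on arrays 1 and 2, on which Timp1 and Timp2 were highest, and 106 to 154 on arrays 3 to 6. At 2 weeks 9 of the 12 were higher and 3 lower, with a median of 0.77, and 0 were called (5 had an unadjusted p under 0.05, all higher). All 12 were higher at 4 weeks and on regular diet than in untreated mice, with medians of 1.57 and 2.12, and 0 were called (8 and 9 had an unadjusted p under 0.05). Of 9 astrocyte markers, 0 were called, and 4 were higher at an unadjusted p under 0.05 in each comparison with untreated mice. The median difference of the 9 was 0.34 at 2 weeks (5 higher and 4 lower), 0.25 at 4 weeks (6 higher and 3 lower) and 0.56 on regular diet (5 higher and 4 lower). S100b, a calcium-binding protein of glia, was lower at 2 weeks by that measure (−1.01, adjusted p = 0.315 with limma). The largest difference was that of Vim, an intermediate filament of reactive astrocytes and of other cells, at 2.24 at 2 weeks, 1.96 at 4 weeks and 2.09 on regular diet (adjusted p = 0.224, 0.269 and 0.105 with limma). The median level of the 9 on an array was 2.25 to 3.53 in untreated mice, 3.53 to 4.92 at 2 weeks, 3.88 to 5.06 at 4 weeks and 3.74 to 4.81 on regular diet, so that all CPZ and regular diet arrays were at or above the highest control, to the decimals given. The summed signal, to which the brightest genes add most, overlapped between groups, at 213 to 339 on untreated arrays, 223 to 306 at 2 weeks, 212 to 351 at 4 weeks and 223 to 296 on regular diet. The part of the microglia and astrocyte markers in the values of Timp1 was not tested.

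**Figure D4:**
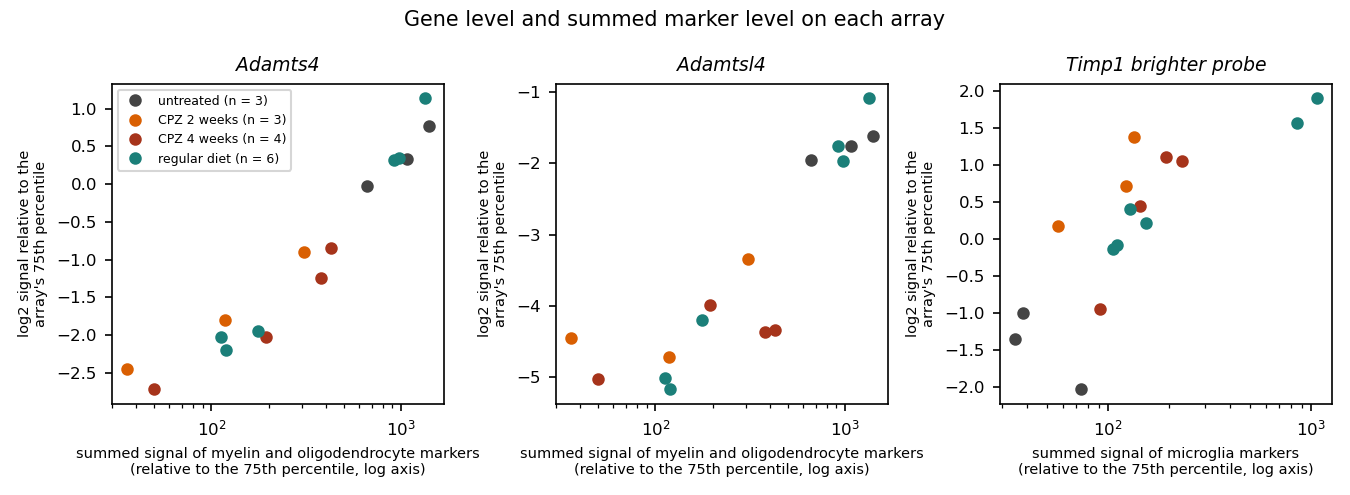
Log2 signal of Adamts4, Adamtsl4 and the brighter Timp1 probe (vertical axes) against the summed signal of cell type markers on the same array (horizontal log axes, relative to the 75th percentile), 1 point for each of 16 arrays, coloured by group. Adamts4 and Adamtsl4 are set against 14 myelin and oligodendrocyte markers and Timp1 against 12 microglia markers; the 3 regular diet arrays with a myelin sum of 918 to 1340 lie next to the untreated arrays.

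Markers of oligodendrocyte precursors, endothelial and mural cells, meningeal fibroblasts, choroid plexus, neurons and red blood cells held 47 tested genes. Of these, 0 were called in each of the 4 comparisons, and the unadjusted p was under 0.05 for at most 1 that was higher and 5 that were lower (regular diet against 4 weeks). In that comparison 11.1% of all genes were lower at such a p. All 9 neuron markers were lower on regular diet than at 4 weeks (median −0.60, 4 at such a p) and than in untreated mice (median −0.41). All 11 endothelial and mural markers were also lower than in untreated mice (median −0.36). All 8 precursor markers were higher on regular diet than at 4 weeks (median 0.47). Choroid plexus markers had a summed signal of 38.2 to 93.7 on untreated, 15.2 to 52.0 on 2-week, 6.13 to 141 on 4-week and 7.44 to 150 on regular diet arrays.

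For 8 of the genes, the named genes with the most alike signal over the 16 arrays were found among 12568 genes well above background on every array. Likeness is Pearson's r and a description, since all points share their arrays and groups. For Timp1 (brighter probe) these were Socs3 (r = 0.968), Osmr (0.941) and Trim30a (0.941). Socs3 is the feedback inhibitor of cytokine signalling through STAT3, and Osmr is the oncostatin M receptor. For Adamts4 they were Wipi1 (0.99), Fa2h (0.987) and Ugt8a (0.986), and Fa2h and Ugt8a also stand on the list of myelin markers. For Adamtsl4 they were Ccp110 (0.972), Piga (0.967) and Mal (0.963), of which Mal is on that list too. Timp2 was most like Mmgt2 (0.93), Timp3 most like the growth factor Bmp7 (0.932) and the collagen chaperone Serpinh1 (0.911), and Timp4 most like Gtf2b (0.931). Mmp2 was most like Asl (0.928) and Adamts1 most like Snhg5 (0.89). Mmp2 and Adamtsl4 were not well above background on some arrays, so that their r rests in part on limits.

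Other genes of the same system were taken from 5 lists. Of 18 other matrix metalloproteases on the array, 6 were tested, and 0 were called in any of the 4 comparisons. The smallest p values were those of Mmp23 after 2 weeks of CPZ (a difference of 1.17 with a standard error of 0.34, adjusted p = 0.21 with limma) and Mmp11 on regular diet against 4 weeks (0.55, adjusted p = 0.212). Of 19 other Adamts and Adamtsl genes, 13 were tested and 0 called. Their medians against untreated were −0.30 at 2 weeks, −0.26 at 4 weeks and −0.22 on regular diet. Adamts16 and Adamts10 were 1.28 and 1.84 higher on regular diet than at 4 weeks (adjusted p = 0.0827 and 0.0842). Both were well above background on 6 of 6 regular diet and 2 of 4 4-week arrays, so that their 4-week level is in part only a limit, and both entered the fit through the 2-week and regular diet groups. Both passed without untreated array 1 (adjusted p = 0.0167 and 0.0192) and without 4-week array 1 (0.0428 and 0.0438), and Adamts10 also with quantile normalization (1.33, adjusted p = 0.0445) and median scaling (1.54, adjusted p = 0.0282). Of 9 Adam sheddases, 7 were tested and 0 called, with the smallest p values for Adam33 on regular diet against 4 weeks (1.65, adjusted p = 0.111, well above background on 6 of 6 and 1 of 4 arrays, so that the 4-week level is mostly a limit) and Adam19 at 2 weeks (−0.83, adjusted p = 0.246). Counts at an unadjusted p under 0.05 in these 3 lists were between 0 and 4 in each direction.

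Among 8 tested genes of the plasminogen system and other inhibitors, 1 was called. A2m, alpha-2-macroglobulin, which traps proteases of all classes, rose by 3.16 on regular diet against untreated (means −0.50 and −3.66, standard error 0.61, adjusted p = 0.0241 with limma). Another A2m probe rose by 3.40 (adjusted p = 0.00664). The A2m difference was 2.76 after 2 weeks of CPZ (adjusted p = 0.245) and 2.99 after 4 weeks (adjusted p = 0.172). Plau, the urokinase that turns plasminogen into plasmin, had means of −2.15 on regular diet and −5.13 in untreated mice (adjusted p = 0.0589). It was well above background on 0 of 3 untreated arrays, so that the latter is only a limit. Plau entered the fit only through groups where it is high and had to differ from untreated. It passed with the slide as a random block (adjusted p = 0.0382) and without regular diet array 3 (0.0316). Among 32 tested matrix substrates and binding partners, 1 was called. Cd44, the hyaluronan receptor that also holds metalloproteases at the cell surface, rose by 3.37 on regular diet against untreated (means 0.94 and −2.43, standard error 0.64, adjusted p = 0.0223), and by 3.28 on another probe (adjusted p = 0.0185). The Cd44 difference was 3.17 after 2 weeks (adjusted p = 0.125) and 3.16 after 4 weeks of CPZ (adjusted p = 0.11). Hapln1, a link protein of perineuronal matrix, was 0.76 lower on regular diet than at 4 weeks (adjusted p = 0.0908), and passed with median scaling (−1.06, adjusted p = 0.0261). That scaling moved the median difference of all probes by −0.30 in this comparison, which takes Hapln1 past 2-fold. The calls of A2m and Cd44 were lost without any 1 of the 3 untreated arrays (adjusted p between 0.0559 and 0.178) and without regular diet array 1 (0.0604 for A2m and 0.0512 for Cd44), and that of A2m also without regular diet array 2 (0.0554).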

How the data were processed

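The authors deposited the background-subtracted signal intensity of each spot from Agilent Feature Extraction (version 11.0.1.1 per the file headers) and a GeneSpring table whose log2 values were scaled to the 75th percentile and stand relative to the untreated median. Intensities of spots of 1 probe were averaged, after 48 to 126 outlier spots on each array and all control spots were left out. Log2 was taken with no pseudocount, and each array's 75th percentile (159.2 to 357.5) was subtracted. Probe accessions were matched to gene symbols on GRCm38.p6, which named 27479 of 41174 probes (66.7%). The file headers name another build, and only promoter coordinates of GRCm38.p6 are given.

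The CPZ groups and untreated controls (10 arrays, 7 residual degrees of freedom, prior 2.2) and all 4 groups (16 arrays, 12 residual degrees of freedom, prior 2.3) were fitted with limma 3.58.1 in R 4.3.3. The test was checked on simulated data. The methods give 3 to 6 mice a condition. The labels do not say that each array is its own mouse, and if some are not, p-values measure technical spread in part. Replicate numbers did not pair the samples: over 19 pairs of arrays of the same number, the correlation of deviations from group means was −0.81 to 0.34. The genes named are the 10 chosen, the called genes or the 2 with the smallest p of each pathway list, and up to 3 genes most like each, of which that for Mmp14 is not reported here. The genes and the 14 lists (5 of pathways, 9 of cell types) were chosen with earlier results of these data known. Scanner files held no mean signal, so normexp used the median signal with an offset of 50. The alternatives were other scalings, backgrounds, filters, tests, blocks, assignments and sets of arrays.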

Additional observations from a re-analysis of the deposited data

How the results depend on the processing

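The count of called genes among the 9 tested was 0 at 2 weeks of CPZ and 1 with normexp correction and with the slide as a random block. At 4 weeks it was 1, and 0 with quantile normalization, median scaling, normexp correction, with dim probes kept, with a filter over all arrays, the replicate block, the methods' test, all 16 arrays in 1 fit, the recorded assignment, and without untreated array 1 and 4-week arrays 2 and 3, an alternative chosen after seeing the data. On regular diet it was 0 against untreated and 1 with the mean of a gene's probes. Against 4 weeks of CPZ it was 0, and 1 without those 3 arrays. Leaving out 1 array at a time, it was 0 to 1 at 2 weeks, 0 to 2 at 4 weeks, and 0 to 0 in both regular diet comparisons. With the replicate block, Adamtsl4 stood at −2.81 at 4 weeks (adjusted p = 0.196), the dimmer Timp1 probe at 3.53, A2m at 3.24 and Cd44 at 3.85 on regular diet against untreated (adjusted p = 0.0772 each), so that all calls were lost. The block changed no other call of a gene named here, and the numbers do not pair the samples. The calls of A2m and Cd44 were also lost with normexp correction (1.04 and 1.95) and the methods' test (adjusted p = 0.115 and 0.106), and that of the dimmer Timp1 probe with quantile normalization (2.6, adjusted p = 0.0728) and the methods' test (adjusted p = 0.0965). Median scaling moved the median difference of all probes by −0.16 at 2 weeks, 0.12 at 4 weeks, −0.18 on regular diet against untreated and −0.30 against 4 weeks of CPZ, and normexp by −0.12, −0.05, −0.15 and −0.12. The number of genes called across the array was 43, 34, 176 and 1 in the 4 comparisons in the order of the text. It was 0, 0, 19 and 0 with the replicate block, 0, 0, 9 and 3 with the methods' test, 254, 327, 263 and 7 with the slide as a random block, 23, 30, 101 and 1045 with median scaling, 52, 16, 133 and 266 with quantile normalization, and 32, 233, 108 and 684 without the 3 arrays named. Without 1 array at a time it was 7 to 63, 0 to 147, 4 to 195 and 0 to 1435, and the shares of all genes called move with it.

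Some differences changed sign with the processing, large ones among them with the recorded assignment. That assignment puts 13 of the 16 arrays in another group, so that it compares other sets of arrays. Under it 0 genes across the array were called in each of the 4 comparisons. Apart from median scaling, covered below, the causes in the other settings were not tested. With the recorded assignment, the called differences on regular diet against untreated were 0.24 for A2m (adjusted p = 0.959), 0.36 for Cd44 (0.941) and 0.19 for the dimmer Timp1 probe (0.969), and all 3 calls were lost. Under it the 2-week differences were 0.18 for Timp2, −0.42 for Timp3, −0.33 for Timp4, 0.85 for Mmp2, 0.29 for Mmp14, −0.72 for Adamts1, 0.85 for Adamts4, 0.00 for Mmp23 and 0.59 for Adam19. Under it the 4-week differences were −0.08 for Timp1 (−0.54 on its dimmer probe), −0.75 for Timp3, 0.28 for Mmp2, −0.12 for Mmp14, −1.15 for Adamts1 and 0.26 for Adamts4. Against untreated, regular diet then gave −0.30 for Timp3, −0.58 for Mmp2, −0.11 for Mmp14 and −1.24 for Adamts1. Against 4 weeks of CPZ it gave −0.03 for Timp2, 0.45 for Timp3, 0.25 for Timp4, −0.86 for Mmp2, −0.09 for Adamts1, −1.68 for Adamts4, −0.64 for Mmp11, −0.96 for Adamts16, −0.67 for Adamts10 and 0.50 for Hapln1. Median scaling gave 0.11 for Timp4 at 4 weeks, −0.07 for Adamts1 on regular diet against untreated, and −0.07 for Timp1, −0.24 for Timp2, −0.24 for Mmp14 and −0.22 for Adamts1 on regular diet against 4 weeks. It moves all probes of a comparison alike, so that these are differences smaller than its shift and not changes particular to the genes. Normexp gave 0.06 for Timp4 at 4 weeks and −0.05 for Mmp2 on regular diet against untreated. The slide as a fixed block gave −0.23 for Timp4 at 2 weeks and, on regular diet against 4 weeks, −0.02 for Timp1, −0.02 for Mmp14 and −0.25 for Adamts1 (−0.01 as a random block). The mean of its probes gave −0.01 for Adamts1 at 4 weeks. Without the 3 arrays, Timp4 was at 0.00 at 4 weeks, 0.02 on regular diet against untreated and 0.01 against 4 weeks, where Timp1 was at −0.14 and Adamts1 at −0.04.

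Without 1 array at a time, signs changed for Timp4 at 2 weeks (−0.01 to 0.53), at 4 weeks (−0.22 to 0.32) and on regular diet against untreated (−0.52 to 0.02). They changed for Mmp2 (−0.90 to 0.22), Mmp14 (−0.03 to 0.48) and Adamts1 (−0.21 to 0.35) at 4 weeks, and for Adamts1 on regular diet against untreated (−0.06 to 0.34). Against 4 weeks of CPZ they changed for Timp1 (−0.23 to 0.46), Timp2 (−0.05 to 0.14), Mmp14 (−0.11 to 0.22) and Adamts1 (−0.24 to 0.32). Of the comparisons of single genes with 1 setting changed, 592 kept direction and call, 11 gained and 21 lost a call, and 49 changed sign. Timp1, Adamts4 and Adamtsl4 kept their direction against untreated in all settings but the recorded assignment, which left Adamtsl4 untested, as did the filter over all arrays. The probe of Adamtsl4, that of Mmp2 and the dimmer Timp1 probe were not well above background on some arrays, which limits what their signal can show. The normexp setting also used another signal and an offset, and these were not varied apart.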
